A study of Homo sapiens with 4 samples.

Results

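The aryl hydrocarbon receptor pathway was followed here through 7 genes chosen by symbol: AHR, AHRR, ARNT, ARNT2, CYP1A1, CYP1B1 and TIPARP. Each has 1 row among the 27631 rows of the value table, against 17144 gene symbols that have a row of their own in the whole table. The rows of AHR, ARNT, ARNT2, CYP1A1 and CYP1B1 list that gene alone, so 5 of the 7 could be measured as single genes. The row of AHRR also lists PDCD6 and the pseudogene PDCD6P1, and the row of TIPARP also lists its antisense RNA TIPARP-AS1. Values of these 2 rows are given as values of shared rows and stand for no single gene.

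All RNA came from WM35, a human cell line of radial growth phase melanoma, kept in serum-containing medium. Per the labels, 20 µM C646 for 6 h, 0.2% DMSO for 6 h, 20 µM C646 for 24 h and 0.2% DMSO for 24 h were the 4 conditions. C646 is a synthetic compound that blocks the acetyltransferase activity of p300 and CBP, and DMSO is its solvent. Each condition was read on 1 exon array, so no difference between conditions has a replicate check, and the number of arrays limits the precision.

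AHR is a transcription factor of the bHLH-PAS family that stays in the cytosol with a chaperone complex until it binds a ligand such as a polycyclic aromatic compound or a tryptophan metabolite. It then enters the nucleus, pairs with ARNT or, in some cells, ARNT2, and binds xenobiotic response elements, whose core letters are GCGTG. CYP1A1, CYP1B1, AHRR and TIPARP are among its classic target genes, and p300 and CBP are known coactivators of its transcription. In pigment cells, ligands of AHR have been tied to melanin synthesis.

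The start-site windows of CYP1A1, AHR and ARNT are shown because the pathway acts through a short DNA element and these members could be measured and had an entry in the table. Each runs from 250 bases before to 50 bases after the start site, 5′ to 3′ on the gene's strand, from RefSeq with the build GRCh38.p14. Capitals mark the core GCGTG on either strand and the E-box CACGTG, the palindrome that a pair of ARNT proteins can bind. The windows are chr15:74725479-74725778 on the minus strand for CYP1A1, chr7:17298402-17298701 on the plus strand for AHR and chr1:150876550-150876849 on the minus strand for ARNT.
CYP1A1: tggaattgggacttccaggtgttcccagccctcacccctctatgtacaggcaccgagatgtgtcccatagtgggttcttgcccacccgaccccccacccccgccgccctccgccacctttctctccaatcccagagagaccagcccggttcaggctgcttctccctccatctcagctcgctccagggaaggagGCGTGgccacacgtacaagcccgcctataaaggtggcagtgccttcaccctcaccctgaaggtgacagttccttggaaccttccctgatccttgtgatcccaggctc
AHR: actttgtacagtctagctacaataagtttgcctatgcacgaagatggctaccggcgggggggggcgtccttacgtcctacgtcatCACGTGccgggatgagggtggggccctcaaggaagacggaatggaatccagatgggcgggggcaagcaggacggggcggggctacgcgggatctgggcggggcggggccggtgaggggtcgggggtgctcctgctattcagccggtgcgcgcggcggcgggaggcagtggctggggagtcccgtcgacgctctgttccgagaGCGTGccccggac
ARNT: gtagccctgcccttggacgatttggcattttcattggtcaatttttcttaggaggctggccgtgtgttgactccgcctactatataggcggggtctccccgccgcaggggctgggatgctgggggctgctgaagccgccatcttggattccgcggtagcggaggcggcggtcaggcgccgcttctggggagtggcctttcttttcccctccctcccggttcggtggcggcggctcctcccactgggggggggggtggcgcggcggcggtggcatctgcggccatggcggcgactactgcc

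The CYP1A1 window held 1 core, with its first base at position -57 relative to the start site, and no E-box. The AHR window held 1 core that begins at position 38 of the transcript and 1 E-box that begins at position -165. The ARNT window held neither set of letters. Of 35116 such windows in the RefSeq table, 36.5% held the core on either strand and 7.26% held the E-box, so a core in a window of this length is common. The longer form TNGCGTG, which contains the core, was in 5.51% of windows and in none of these 3. AHRR had 2 windows in the table, both with a core, and its window at the gene's first start held the longer form too. TIPARP had 3 windows, of which the 1 at the gene's first start held 2 cores on the opposite strand. CYP1B1 and ARNT2 had no entry. A match is a description of the letters, and the well-known enhancer of CYP1A1 lies further upstream than this window.

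Values are the authors' log2 expression values, and a difference is C646 minus DMSO of the same time. Rows with a mean over the 4 arrays under the 40th percentile of all rows, 3.96 on the log2 scale, were treated as close to background, which left 16579 rows. AHR, ARNT, ARNT2 and CYP1A1 lay above that limit, as did both shared rows, and CYP1B1 lay below it. The nearest thing to a spread in these data is the pair of DMSO arrays, which differed between 24 h and 6 h with an SD of 0.174 (log2) over the 16579 rows. That SD holds any change with time in culture as well as array error. Over all rows, correlations with the C646 array of 24 h were 0.976 to 0.979, and those among the other 3 arrays were 0.991 to 0.996. Of 8 melanocyte markers 6 had a row of their own, all above the limit. Among the single-gene rows of other cell types, 0 of 4 endothelial, 0 of 4 leukocyte, 1 of 4 keratinocyte and 2 of 5 fibroblast markers were above it. RNA came from whole cultures, so fewer cells that express a gene and less of its RNA per cell cannot be told apart.

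CYP1A1 was the member with the largest difference, and it was higher with C646 at both times. CYP1A1 encodes the cytochrome P450 that oxidises polycyclic aromatic compounds and is the gene most used as a readout of AHR. Its log2 level was 4.64 with C646 against 4.01 with DMSO at 6 h, and 4.49 with C646 against 3.77 with DMSO at 24 h. Both C646 arrays lay above both DMSO arrays, as 25.7% of all rows did. The difference was 0.64 (1.55-fold) at 6 h and 0.72 (1.65-fold) at 24 h, and the 24 h difference exceeded the 6 h one by 0.086. Between 24 h and 6 h the level differed by -0.15 in the C646 arrays and by -0.24 in the DMSO arrays, so the differences between treatments were larger than those between times. The melanocyte markers with a row of their own were mostly higher with C646 too: 5 of 6 were above 0 at 6 h and 6 of 6 at 24 h, with median differences of 0.45 and 0.57. At each time 3 of the 6 were at least 1.5-fold higher, against 1.00% of all rows at 6 h and 4.96% at 24 h. Their median level was 7.85 with C646 against 7.34 with DMSO at 6 h, and 7.73 with C646 against 7.16 with DMSO at 24 h. MITF, the lineage transcription factor, was at 0.79 and 0.90, and S100B at 0.61 and 1.49. The lowest of the markers by mean difference were PMEL, at 0.089 and 0.078, and TYRP1, at -0.27 and 0.15. The part of the melanocyte markers in the CYP1A1 difference was not tested.

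The level behind that difference was low. The mean of CYP1A1 over the 4 arrays, 4.23, was at the 46.5th percentile of all rows, and its DMSO mean of 3.89 was under the filter while its C646 mean of 4.57 was over it. It therefore passed the filter through the C646 arrays, and counts over members that passed say nothing in support of its difference. A row so close to background can understate a fold change. Ranked by difference, CYP1A1 was number 129 of 16579 rows at 6 h, with 0.772% of rows higher, and number 478 at 24 h, with 2.88% higher.

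**Figure D1:**
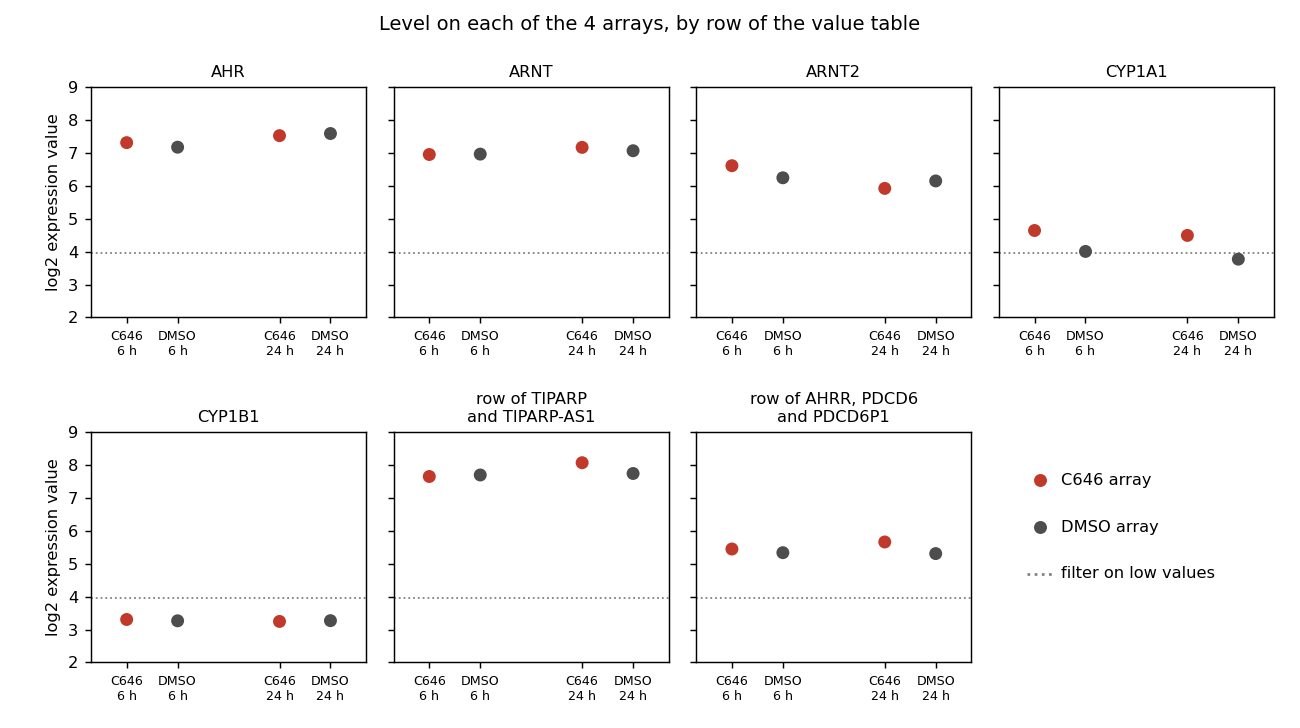
Log2 expression value (vertical axis) of each of the 7 rows on the C646 array (red) and the DMSO array (grey) of 6 h and 24 h, 1 array per point, with the filter on low values as a dotted line. CYP1A1 sits at 4.64 and 4.49 on the C646 arrays, against 4.01 and 3.77 on the DMSO arrays, whereas CYP1B1 stays between 3.25 and 3.31.

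AHR, the receptor itself, did not differ by 1.5-fold between C646 and DMSO at either time. Its log2 level was 7.32 with C646 against 7.18 with DMSO at 6 h, and 7.53 with C646 against 7.60 with DMSO at 24 h. The differences were 0.14 and -0.064, of opposite sign. AHR differed more between times than between treatments. The DMSO array of 24 h was 0.42 above that of 6 h, which put AHR at number 229 of 16579 rows, with 1.38% of rows higher. In the C646 arrays the same step was 0.21. Both 24 h arrays were above both 6 h arrays, and the treatments overlapped. That order of times was also seen for ARNT and the shared row of TIPARP, and its share over all rows was not counted.

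ARNT, the obligate dimer partner of AHR and of the hypoxia-inducible factors, was the flattest member above the filter. Its log2 level was 6.96 with C646 against 6.97 with DMSO at 6 h, and 7.17 with C646 against 7.07 with DMSO at 24 h. The differences of -0.012 and 0.10 were both smaller than the SD of 0.174 between the DMSO arrays, and the treatments overlapped.

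ARNT2, the close relative of ARNT that is best known from neurons and the hypothalamus, went opposite ways at the 2 times. Its log2 level was 6.62 with C646 against 6.25 with DMSO at 6 h, and 5.93 with C646 against 6.15 with DMSO at 24 h. The C646 array was thus the highest of the 4 at 6 h and the lowest at 24 h. The difference was 0.37 (1.29-fold higher) at 6 h, with 3.73% of rows higher, and -0.23 (1.17-fold lower) at 24 h, where 82.5% of rows were higher. Within the C646 arrays ARNT2 was 0.69 lower at 24 h than at 6 h, and it was the 1 member of 4 at least 1.5-fold lower in that comparison, against 5.19% of all rows. In DMSO the same step was -0.096. With 1 array per condition the change of sign was not tested.

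**Figure D2:**
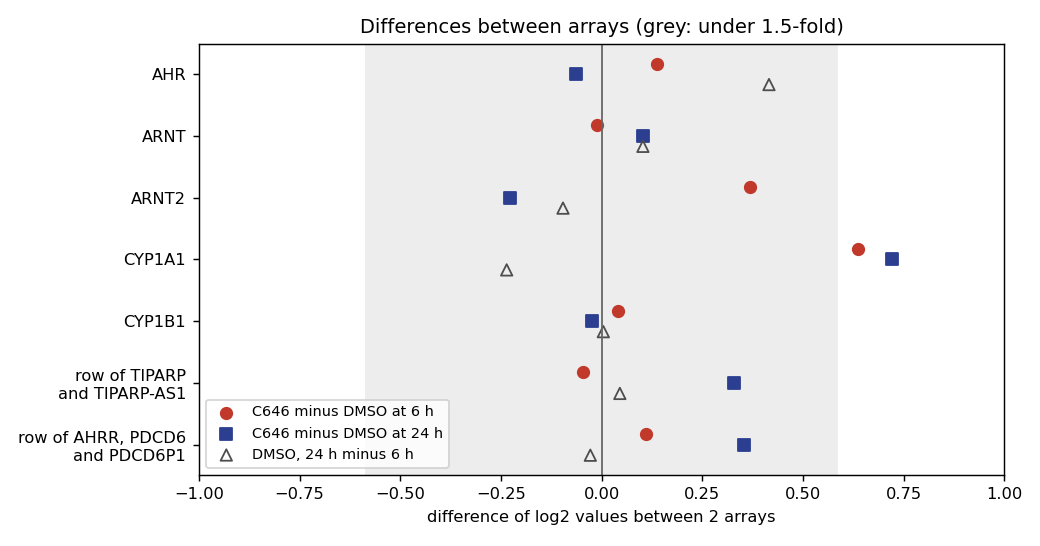
Difference of log2 values between 2 arrays (horizontal axis) for each of the 7 rows: C646 minus DMSO at 6 h (circles), C646 minus DMSO at 24 h (squares) and 24 h minus 6 h in DMSO (triangles). The points of CYP1A1 for C646, 0.64 and 0.72, are the ones outside the grey band that marks less than 1.5-fold.

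CYP1B1, the cytochrome P450 that hydroxylates estradiol and many procarcinogens outside the liver, was close to background on every array. Its log2 value was 3.31 with C646 against 3.27 with DMSO at 6 h, and 3.25 with C646 against 3.27 with DMSO at 24 h. The whole range over the 4 arrays was 0.060. Its mean of 3.27 was at the 10.8th percentile of all rows, so a C646 difference in CYP1B1 was not detectable at this level.

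TIPARP, a mono-ADP-ribosyltransferase that acts on AHR as a feedback inhibitor, shares its row with its antisense RNA. The log2 value of that row was 7.66 with C646 against 7.71 with DMSO at 6 h, and 8.08 with C646 against 7.75 with DMSO at 24 h. The differences were -0.046 and 0.33. The C646 array of 24 h was the highest of the 4, and the other 3 lay within 0.1 of each other. Which of the 2 transcripts carries the 24 h difference cannot be told from this row.

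AHRR, the repressor that competes with AHR for ARNT, shares its row with PDCD6, a calcium-binding protein gene expressed in most cells. The log2 value of that row was 5.45 with C646 against 5.34 with DMSO at 6 h, and 5.67 with C646 against 5.31 with DMSO at 24 h. The differences were 0.11 and 0.35, and both C646 arrays lay above both DMSO arrays, as in 25.7% of all rows. Nothing can be said of AHRR alone.

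Counted together, 1 of the 5 single-gene members, CYP1A1, was at least 1.5-fold higher with C646 at 6 h, and again 1 of 5 at 24 h. Without the filter, 0.698% and 3.24% of all 27631 rows passed that fold at 6 h and 24 h. With the filter it was 1 of 4 at each time, against 1.00% of rows at 6 h and 4.96% at 24 h. No member was at least 1.5-fold lower, against 1.26% of rows at 6 h and 5.34% at 24 h. No member reached 2-fold. The share of rows at least 2-fold higher was 0.127% at 6 h and 1.14% at 24 h, and the share at least 2-fold lower was 0.115% and 2.50%. Being at least 1.5-fold higher at both times was shared by 75 of 16579 rows (0.452%), CYP1A1 among them. That share without the filter was not counted. CYP1A1 passed the filter through its C646 arrays, so the counts with the filter give its difference no support.

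Both C646 arrays lay above both DMSO arrays in 1 of the 4 kept members, CYP1A1, and in 25.7% of all rows. Both lay below in 0 of 4, against 21.4% of rows. Over the 5 single-gene members the median difference was 0.14 at 6 h and -0.024 at 24 h without the filter, beside -0.0059 and -0.0025 for all rows. So few members, of which 1 stands out, are better described one by one than by a median.

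**Figure D3:**
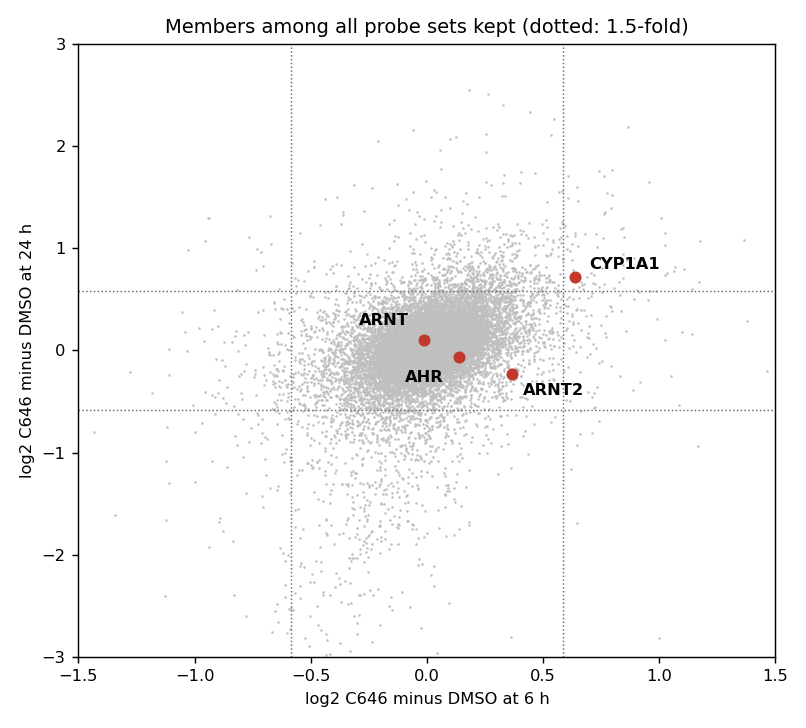
Log2 difference C646 minus DMSO at 24 h (vertical axis) against that at 6 h (horizontal axis) for the 16579 rows kept (grey, 24 of them outside the axes) and the 4 single-gene members among them (red). CYP1A1 is the member in the upper right corner that the dotted 1.5-fold lines mark off, and AHR, ARNT and ARNT2 lie inside the lines.

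A C646 effect common to both times was estimated with limma on all 4 arrays, with time as a term and p-values adjusted over all 16579 rows. It rests on 1 residual degree of freedom, which is how far the 6 h and 24 h differences of a row disagree. Its error combines that disagreement with a variance that limma estimates over all rows, so the limma p-values depend on this shared variance. CYP1A1 had an effect of 0.68 ± 0.082 (SE), with an unadjusted limma p of 0.00113 and an adjusted p of 0.448, which does not pass 0.05. The effects of ARNT2, ARNT and AHR were 0.070 ± 0.18, 0.045 ± 0.11 and 0.037 ± 0.12, with limma adjusted p of 0.892, 0.888 and 0.917. This test called 0 members and 0 of 16579 rows (0.00%), while 1828 rows had an unadjusted limma p under 0.05. Over the alternatives that kept all 4 arrays, the adjusted limma p of CYP1A1 ran from 0.444 to 0.506. Without the C646 array of 6 h, a fit with no time term and a lone C646 array, its effect was 0.60. In that fit a row's own residual comes from the DMSO pair alone, and its error again takes in the variance shared over rows.

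The 5 genes whose profile over the 4 arrays was most like that of CYP1A1 were TPI1P2, PGBD4, SEMA6D, THEM4 and LINC00937. Likeness was the Euclidean distance between log2 profiles centred on each gene's own mean, over 10637 genes, and these distances ran from 0.088 to 0.11. SEMA6D, a semaphorin gene, had a level as low as that of CYP1A1, with 4.33 for C646 against 3.80 for DMSO at 6 h and 4.32 for C646 against 3.58 for DMSO at 24 h. THEM4, a thioesterase gene, had 8.06 for C646 against 7.50 for DMSO at 6 h and 7.86 for C646 against 7.27 for DMSO at 24 h. The row of LINC00937 is numbered among rows of chromosome 7, whereas the gene is on chromosome 12. A profile of 4 points is easily matched, and none of these genes belongs to the lists below.

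The lists that follow share a few members, such as CYP1A2, IDO1 and NCOA1. Genes that hold AHR in the cytosol, modify it or work with it showed no 1.5-fold difference. Of all rows, 1.00% were at least 1.5-fold higher and 1.26% lower at 6 h, and 4.96% and 5.34% at 24 h. Of 15 listed, 11 had a row above the filter, with a median difference of -0.054 at 6 h and -0.046 at 24 h, beside -0.0024 and 0.030 for all kept rows. CUL4B, the scaffold of a ubiquitin ligase that includes AHR, was at -0.065 and 0.45, and NRIP1, a nuclear receptor cofactor, was at -0.054 and 0.58. RELB, an NF-κB subunit that can pair with AHR, was at -0.48 and -0.16. PTGES3, the co-chaperone p23, was at -0.51 and -0.57 in its highest row, but that row is numbered among rows of chromosome 9 and the gene is on chromosome 12. The 1 row of PTGES3 that is numbered with chromosome 12 was at -0.16 and -0.33. The 5 single-gene rows of the members are each numbered among rows of their own gene's chromosome, and the shared rows of AHRR and TIPARP among rows of chromosomes 5 and 3.

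Other bHLH-PAS genes, some of which share dimer partners with AHR, differed in few cases. Of 18 listed, 11 were kept, with medians of -0.0001 at 6 h and -0.0037 at 24 h, and 2 of the 11 were at least 1.5-fold higher at 24 h, against 4.96% of all rows. EPAS1, which encodes the hypoxia-inducible factor HIF-2α, was at 0.058 and 0.63. HIF1A, its better known relative and also a partner of ARNT, was at 0.048 and 0.61, and was picked out after its values were seen. NPAS2, a clock gene, was at 0.23 and 0.51, BMAL2 at -0.17 and -0.37, and the clock repressor PER2 at -0.11 and -0.52.

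Further known targets of AHR mostly differed by less than 1.5-fold or lay under the filter. Of 30 listed, 15 were kept, 8 had a row under the filter, 6 had only a row shared with other genes and 1 was not analysed here. NQO1, an antioxidant enzyme gene named after its row was looked up, is among the 6. The medians were 0.019 at 6 h and 0.035 at 24 h. No kept target was 1.5-fold different at 6 h, where 1.00% of all rows were higher and 1.26% lower. CYP1A2, the neighbour of CYP1A1 on chromosome 15 that is mostly a liver gene, was at 4.18 with C646 against 4.24 with DMSO at 6 h, and at 4.14 with C646 against 4.13 with DMSO at 24 h. Its differences were -0.065 and 0.011, beside 0.64 and 0.72 for CYP1A1. With 1 array per condition, whether the 2 genes differ in response was not tested.

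Among those targets BAX, a pro-apoptotic gene that is also a textbook target of p53, was at 0.019 and 1.00. It was the 1 of 15 kept targets that reached 2-fold, at 24 h. Of all rows, 1.14% were at least 2-fold higher and 2.50% lower at 24 h. MYC was at 0.37 and 0.42, the prostaglandin synthase gene PTGS2 at -0.43 and -0.49, and the cell cycle inhibitor gene CDKN1B at -0.052 and -0.32. SLC7A5, an amino acid transporter gene that also carries tryptophan and kynurenine into cells, was at 0.40 and 0.33 and was picked out after its values were seen.

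Enzymes that make or remove tryptophan-derived ligands of AHR had 4 of 15 genes above the filter. IDO1, IDO2 and TDO2, which start the kynurenine pathway, were all under it, with values of 3.20 to 3.54 on the C646 arrays and 3.22 to 3.60 on the DMSO arrays, and were named after their values were seen. AFMID, the next enzyme, was at -0.023 and 0.37, and its other row at -0.012 and 0.017. KYNU, which breaks kynurenine down, was at -0.090 and 0.30, and the aminotransferase genes AADAT and KYAT1 were at 0.048 and -0.39 and at 0.051 and 0.15. None differed 1.5-fold.

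Among other cytochrome P450 genes of families CYP1 to CYP3, 4 of 15 were kept and none differed 1.5-fold. The shares of all rows that did are given below, beside the PARP genes. CYP2U1 was at 0.32 and 0.22, CYP2J2 at 0.12 and 0.062 and the vitamin D hydroxylase gene CYP2R1 at 0.044 and -0.27. A second kept row of CYP2R1 was at -0.0023 and 0.062, of opposite sign at both times. Of 16 PARP family relatives of TIPARP, all with a row above the filter, 0 differed 1.5-fold at 6 h, where 1.00% of all rows were higher and 1.26% lower. At 24 h 2 were higher and 2 lower, against 4.96% and 5.34% of all rows. The row of PARP15, named after its place was seen, is numbered among rows of chromosome 12 whereas the gene is on chromosome 3. PARP1 and PARP2, the sensors of DNA breaks, were at -0.70 and -0.79 at 24 h, while PARP3 and the mono-ADP-ribosyltransferase gene PARP10 were at 0.64 and 0.60. A second kept row of PARP1 was at -0.12 at 6 h and -0.39 at 24 h. It is numbered among rows of chromosome 14, whereas the gene is on chromosome 1.

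**Figure D4:**
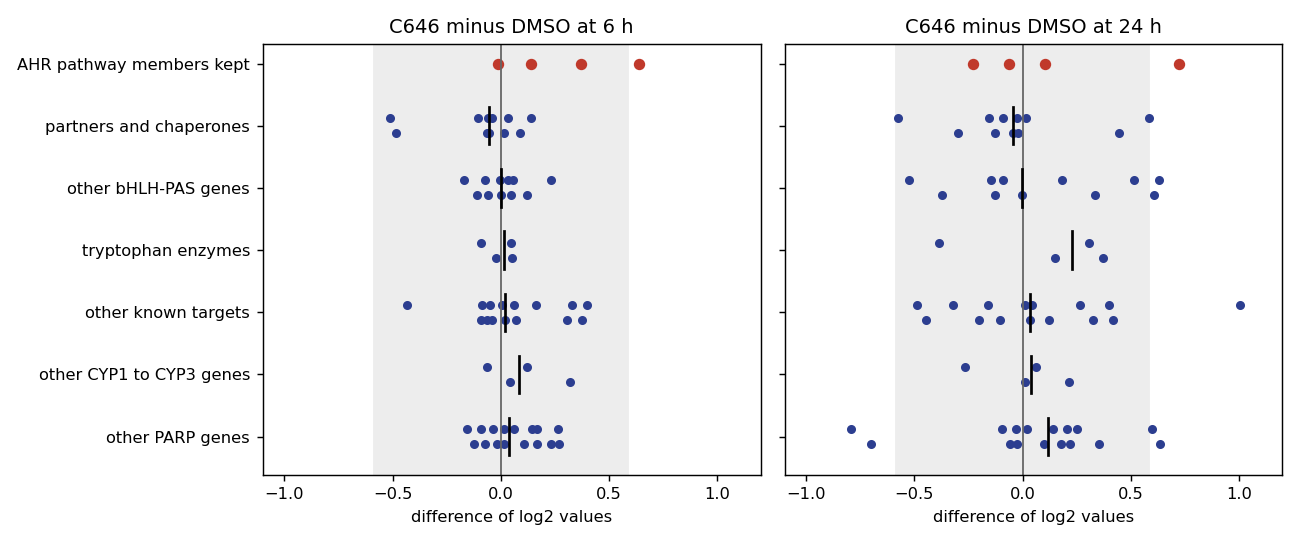
Log2 difference C646 minus DMSO (horizontal axis) at 6 h (left) and 24 h (right), 1 point per gene above the filter, for the 4 kept members (red) and 6 lists of related genes (blue, black bar at the list's median). CYP1A1 is the 1 point outside the grey band of less than 1.5-fold at 6 h.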

How the data were processed

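Labelled RNA of 4 cultures was hybridised to Affymetrix GeneChip Human Exon 1.0 ST arrays. The authors deposited log2 expression values for 27631 gene-level rows. Values between 2.48 and 13.6, with array medians of 4.39 to 4.41, gave the scale away as log2 and as already common to the arrays. How they were summarised and normalised is not given in the sources used. Per the submitters' processing notes the build was hg19, and no coordinates of that build are given.

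Symbols came from the platform annotation, updated through gene identifiers with a RefSeq table of GRCh38.p14. It listed 1 symbol for 20429 rows (20362 matched), several for 4232 and none for 2970. Start-site sequences are from RefSeq, where 5 of the 7 members had an entry. The row with the highest mean stood for a gene. Rows under the 40th percentile of the mean were set aside. A row was also placed by the chromosome most frequent among its 50 nearest rows by number.

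With 1 array per group, differences were counted at 2-fold and 1.5-fold, and no test was made within a time. The C646 effect over both times was tested with limma 3.58.1 in R 4.3.3, with a trend of variance on mean, adjusted by Benjamini-Hochberg at 0.05. The fit was run on simulated data with even noise and planted changes that were equal at both times. Those changes were larger than any difference of a member, so that run does not show whether differences of the members' size can be detected. Motifs and counts were computed in Python 3.11.15 with pandas 2.3.3.

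The members, lists, tests and naming rule were chosen with earlier results of these data known. Named were all members, the 2 highest and 2 lowest genes of each list by mean difference, those with a 2-fold difference, and the 5 genes nearest to the member with the largest range. Alternatives were quantile normalisation, centring, other filters, the mean of all rows of a gene, the mean of both DMSO arrays as reference, no trend, leaving out each array, and, added after seeing the data, counting the shared rows as members.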

Additional observations from a re-analysis of the deposited data

Results flagged for a closer look

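Looked at here were the single-gene members above the filter and the genes named by rule from the related lists. Those with C646 differences of opposite sign at 6 h and 24 h are given below. The share of all rows with opposite signs was not counted, so how many there are is no result about these genes. Outside that set, CYP1B1, under the filter, was at 0.040 and -0.024. The shared row of TIPARP was at -0.046 and 0.33, and the melanocyte marker TYRP1 at -0.27 and 0.15. With 1 array per condition these differences between times were not tested, and small values of either sign are common. For the single-gene members of that set, the 24 h difference minus the 6 h difference was -0.60 for ARNT2 (0.37 at 6 h and -0.23 at 24 h), -0.20 for AHR and 0.11 for ARNT. For genes of the related lists it was 0.64 for NRIP1, 0.51 for CUL4B, 0.39 for AFMID, 0.39 for KYNU, 0.075 for CYP1A2, -0.31 for CYP2R1 and -0.44 for AADAT. The second row of CYP2R1 went the other way, with -0.0023 at 6 h and 0.062 at 24 h, and that of AFMID was at -0.012 and 0.017.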

How the results depend on the processing

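CYP1A1 was at least 1.5-fold higher at both times under quantile normalisation, centring and the mean of both DMSO arrays. No filter and the mean of all rows could not change its differences, since each member has 1 row and a filter alters no value. With the filter at the 60th percentile CYP1A1 was set aside, and 0 members passed 1.5-fold at 6 h and 0 at 24 h, since fewer genes were counted. Against the mean of both DMSO arrays AHR was at -0.069 at 6 h and 0.14 at 24 h, which takes in the 0.42 between the DMSO arrays. With the shared rows counted, the members' median at 24 h was 0.22. A value was taken as moved when it shifted by over 0.174, the SD between the DMSO arrays over rows. Leaving out 1 array at a time, with the time term dropped and a lone array assumed to vary like the others, the limma effect ran from 0.56 to 0.80 for CYP1A1, -0.28 to 0.42 for ARNT2, -0.17 to 0.25 for AHR and -0.063 to 0.15 for ARNT. The limma count ran from 0 to 2252 rows, with 2252 without the C646 array of 6 h, which leaves 1 C646 array, of 24 h, beside the DMSO pair. Of 137 alternative values, 125 moved by less than that SD, stayed within 1.5 times for counts or, for limma, kept their sign and their side of 0.05. The 125 include values fixed in advance, such as a member's difference under another filter or under the mean of its 1 row, so they overstate stability. Within that SD, the members' median at 24 h, 0.0195, changed sign with quantile normalisation (-0.0061), no filter (-0.024) and the filter at the 60th percentile (-0.064). The labels give no replicate numbers to pair arrays by, and the time term already sets arrays of the same time against each other. Signal near background limits CYP1A1 and CYP1B1, and no detection call per row was used.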
